A study of Mus musculus with 19 samples.

Results

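MicroRNA (miRNA) levels in the nucleus accumbens were compared with those in the extensor digitorum longus (EDL) of low-active C3H/HeJ mice. The comparison used 7 of the 19 arrays of the series, namely 3 of the nucleus accumbens (mice 194, 195 and 197) and 4 of the EDL (mice 194, 195, 196 and 197), chosen by the strain and tissue labels of each sample. The series set inbred low-active C3H/HeJ against high-active C57L/J mice and asked whether miRNAs differ between the strains in brain and muscle. By the study's methods, the arrayed mice were males, 8 weeks old at the start, housed singly for 1 week with a running wheel that was locked, and killed at 9 weeks, with no treatment and no genetic alteration. Total RNA of each whole tissue sample was hybridised to a one-colour Agilent mouse miRNA array, so every value is an average over all cells of the sample. Samples of the 2 tissues were linked by the number in their titles, taken to be that of the mouse, and mouse 196 had an EDL array only.

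A miRNA is a short RNA cut from a hairpin precursor, and either arm of the hairpin, named 5p or 3p, can become the mature strand. It pairs with messenger RNAs mainly through its seed, bases 2 to 8 from the 5′ end, and lowers the output of the messages it pairs with. The nucleus accumbens is a reward centre of the ventral striatum made of neurons and glia. The EDL is a hindlimb muscle made mostly of fast fibres. Each tissue has miRNAs that are textbook marks of its cells. miR-124 and miR-9 belong to neurons and their precursors, whereas miR-1, miR-133 and miR-206 are transcribed in muscle fibres under the myogenic transcription factors.

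The mature sequences below are a selection from the miRNAs described here, chosen to show both arms of a hairpin, shared seeds and neighbouring hairpins. They are not the full set of the largest differences. They come from RefSeq annotation of the mouse build GRCm38.p6, run 5′ to 3′, and carry the seed in capitals. The first set was higher in the nucleus accumbens. It holds both arms of miR-9, the miR-132 and miR-212 pair with a common seed from neighbouring hairpins, and the miR-7 pair with a common seed from hairpins on different chromosomes.
miR-9-5p: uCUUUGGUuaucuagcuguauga
miR-9-3p: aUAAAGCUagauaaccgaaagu
miR-129-2-3p: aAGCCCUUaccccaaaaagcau
miR-132-3p: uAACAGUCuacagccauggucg
miR-212-3p: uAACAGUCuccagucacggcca
miR-137-3p: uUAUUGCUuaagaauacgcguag
miR-218-5p: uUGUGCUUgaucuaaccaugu
miR-7a-5p: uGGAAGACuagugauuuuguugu
miR-7b-5p: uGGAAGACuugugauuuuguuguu
miR-128-3p: uCACAGUGaaccggucucuuu
miR-376a-3p: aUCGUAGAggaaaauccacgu

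The second set was higher in the EDL. It holds muscle-specific miR-206, the miR-10 and miR-196 pairs whose hairpins lie among Hox genes, and both arms of miR-199a with its neighbour miR-214.
miR-206-3p: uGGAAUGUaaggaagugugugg
miR-10a-5p: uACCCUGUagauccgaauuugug
miR-10b-5p: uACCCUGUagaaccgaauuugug
miR-196a-5p: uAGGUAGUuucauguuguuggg
miR-196b-5p: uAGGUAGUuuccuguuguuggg
miR-199a-5p: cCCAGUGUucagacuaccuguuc
miR-199a-3p: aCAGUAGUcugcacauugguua
miR-214-3p: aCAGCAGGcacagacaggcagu

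In GRCm38.p6, miR-9-5p is encoded at 3 places, chr3:88215613-88215635, chr7:79505279-79505301 and chr13:83738821-83738843, all on the plus strand, each inside an annotated gene. miR-132-3p (chr11:75173723-75173744) and miR-212-3p (chr11:75173443-75173464) lie side by side on the plus strand of chromosome 11. miR-206-3p (chr1:20679055-20679076, plus strand) lies inside Lincmd1, a noncoding RNA gene that also spans the hairpin of miR-133b. miR-10b-5p (chr2:74726074-74726096, plus strand) lies inside the spans of Hoxd3 and Hoxd4, and miR-376a-3p (chr12:109723824-109723844, plus strand) lies in the imprinted Dlk1-Dio3 region. miR-218-5p is encoded inside Slit2 and inside Slit3, and miR-128-3p inside R3hdm1 and inside Arpp21. Probes for pairs as alike as miR-7a and miR-7b, miR-10a and miR-10b, or miR-196a and miR-196b may take up each other's RNA, so the members of such a pair are not independent measurements.

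Each array measured 1079 mouse miRNAs. A miRNA was detected on an array when most spots of at least 1 of its probes were well above background. By this rule 351 to 388 mouse miRNAs were detected per nucleus accumbens array and 237 to 332 per EDL array. The EDL array of mouse 195 was the dimmest of the 7, with a 75th percentile of 586 intensity units over the miRNAs detected on all 7 arrays, against 784 to 1387 on the others. By the array barcodes it was the only low-active EDL array on its glass slide. Of the 7 arrays, that slide also held the nucleus accumbens array of mouse 194. Among the low-active EDL arrays, mouse 195 and that slide cannot be told apart. The low-active nucleus accumbens arrays each lay on a different slide, so mouse and slide cannot be told apart there either, also for mouse 197. Values below are log2 of the spot intensity after the 7 arrays were brought to a common 75th percentile over those miRNAs. Scaled values under 22.1 units, the median over the arrays of each array's lowest detected probe signal, were set to that floor, which is 4.46 on the log2 scale. Array values are given in the order of the mouse numbers. Over the miRNAs tested, arrays of the nucleus accumbens correlated with each other at 0.986 to 0.992, EDL arrays at 0.959 to 0.994, and arrays of different tissues at 0.467 to 0.584. These are correlations across miRNAs, which are not independent replicates. Only the number of arrays can be said to limit the precision.

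Of 404 mouse miRNAs detected on at least 3 of the 7 arrays, 179 were higher in the nucleus accumbens (44.3% of those tested) and 95 were higher in the EDL (23.5%) at an adjusted p under 0.05 from limma with mouse as a block. At 2-fold or more the counts were 143 (35.4%) and 81 (20.0%). The balance of the directions depended on the scaling. The nucleus accumbens took 65.3% of the calls here, but 46.2% (127 against 148 miRNAs) when the percentile was taken over all mouse miRNAs on the array and 47.6% (136 against 150) after quantile normalization. These settings moved the median difference by -0.18 and -0.14, unscaled intensities moved it by 0.14, and scaling to the spike-in controls moved it by 0.24. Differences are therefore relative to the scaling, and small ones are given below with their range. The median difference over the 404 miRNAs was 0.14 (log2, nucleus accumbens minus EDL). The tissues did not overlap, array by array, for 273 miRNAs (67.6%). Leaving out 1 nucleus accumbens array left 319 or 320 miRNAs with enough arrays to test, and 100 to 112 were then called higher in that tissue (107 without mouse 194, 112 without mouse 195 and 100 without mouse 197). All 259 of the called miRNAs with more than 1 detected probe had every such probe in the same direction.

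Many of these differences reached down to the detection limit. There were 84 miRNAs detected on all 3 nucleus accumbens arrays and on no EDL array, and 24 detected on all 4 EDL arrays and on no nucleus accumbens array. For those named below the ratio is a bound, written as "at least". It sets the mean of the brighter tissue against, on each array of the dimmer tissue, the higher of that array's lowest detected signal and the miRNA's own signal. miRNAs detected in 1 tissue alone passed the filter through that tissue. This limits what the counts of calls in the lists below can say. Those counts stand beside 44.3% and 23.5% of all miRNAs tested. Where a tissue lay at the floor on all its arrays, its spread was 0 by construction. The fit pooled that 0 with the spread of the other tissue, which lowered the standard error and p. Such p values overstate the precision. Of the calls, 78 of the 179 and 18 of the 95 had such a tissue. With a floor of 1 unit in its place, 178 of the 179 and all 95 were still called. That count does not test the precision. A lower floor widens such differences, and a tissue lying at the new floor on all its arrays again has a spread of 0.

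**Figure D1:**
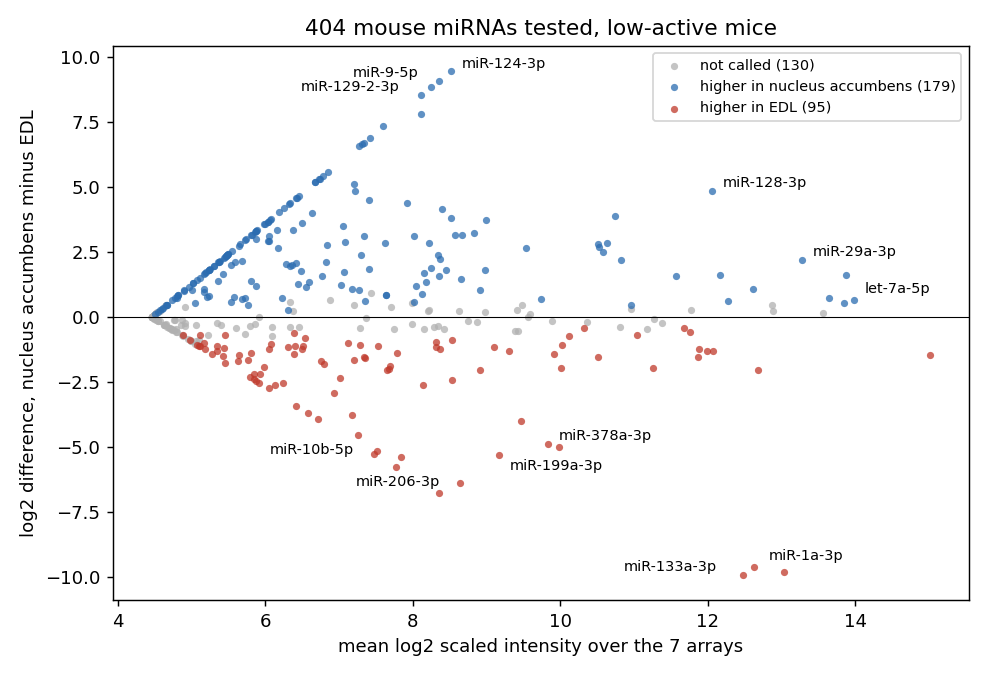
Each point is 1 of the 404 miRNAs tested. The horizontal axis is its mean log2 scaled intensity over the 7 arrays and the vertical axis the log2 difference, nucleus accumbens minus EDL. Blue points (179) were called higher in the nucleus accumbens, red points (95) higher in the EDL and grey points (130) were not called. The straight edges of the cloud are miRNAs at the floor in 1 tissue, and miR-124-3p and miR-133a-3p are the extremes at 9.45 and -9.92.

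All 21 neuronal miRNAs listed were higher in the nucleus accumbens, beside 44.3% of all miRNAs tested. Their median difference was 4.84, against 0.14 over all miRNAs tested. With the percentile over all miRNAs, and after quantile normalization, 20 were called. In none of the 21 did the tissues overlap, as in 67.6% of all miRNAs tested, and 16 were detected on every nucleus accumbens array and no EDL array. Those 16 passed the detection filter through the nucleus accumbens alone, which limits what the counts can say. miR-124-3p, the best known neuronal miRNA, read 13.94, 13.97 and 13.83 in the nucleus accumbens and lay at the floor on all 4 EDL arrays. It was at least 679-fold higher in the nucleus accumbens (adjusted p = 2.5e-10 from limma). Both arms of miR-9, which acts in neural progenitors and striatal neurons, were bright. miR-9-5p read 13.42, 13.61 and 13.61 and miR-9-3p read 13.04, 13.06 and 12.86, both at the floor in the EDL. They were at least 528-fold and 358-fold higher in the nucleus accumbens. miR-129-2-3p, from a hairpin transcribed in brain, read 13.43, 13.28 and 13.17 and was at least 441-fold higher. Its relative from the other miR-129 locus, miR-129-1-3p, was at least 97.5-fold higher.

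miR-132-3p, whose gene is switched on by neuronal activity through CREB, read 12.61, 12.87 and 12.21 in the nucleus accumbens. In the EDL it read 4.73, 4.85, 5.03 and 4.46, just above or at the floor, and the difference was 7.81 (standard error 0.175, adjusted p = 2.6e-07). miR-212-3p comes from the neighbouring hairpin and has the same seed, yet it separated the tissues far less. It read 8.93, 9.11 and 8.80 against 7.49, 7.44, 7.62 and 7.91, a difference of 1.33 (standard error 0.137, adjusted p = 0.00028). Of the others, miR-137-3p, a regulator of neuronal maturation, was at least 116-fold higher, and miR-138-5p, which is found in dendrites, at least 91.2-fold. miR-598-3p was at least 41.4-fold higher. miR-218-5p read 12.04, 11.81 and 11.54 in the nucleus accumbens and lay at the floor in the EDL, where 1 of 4 arrays detected it. miR-128-3p, a brain-enriched miRNA that was bright in both tissues, read 14.95, 15.13 and 14.37 in the nucleus accumbens against 10.33, 9.07, 10.50 and 10.11 in the EDL, a difference of 4.84 (standard error 0.385, adjusted p = 8.2e-05).

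**Figure D2:**
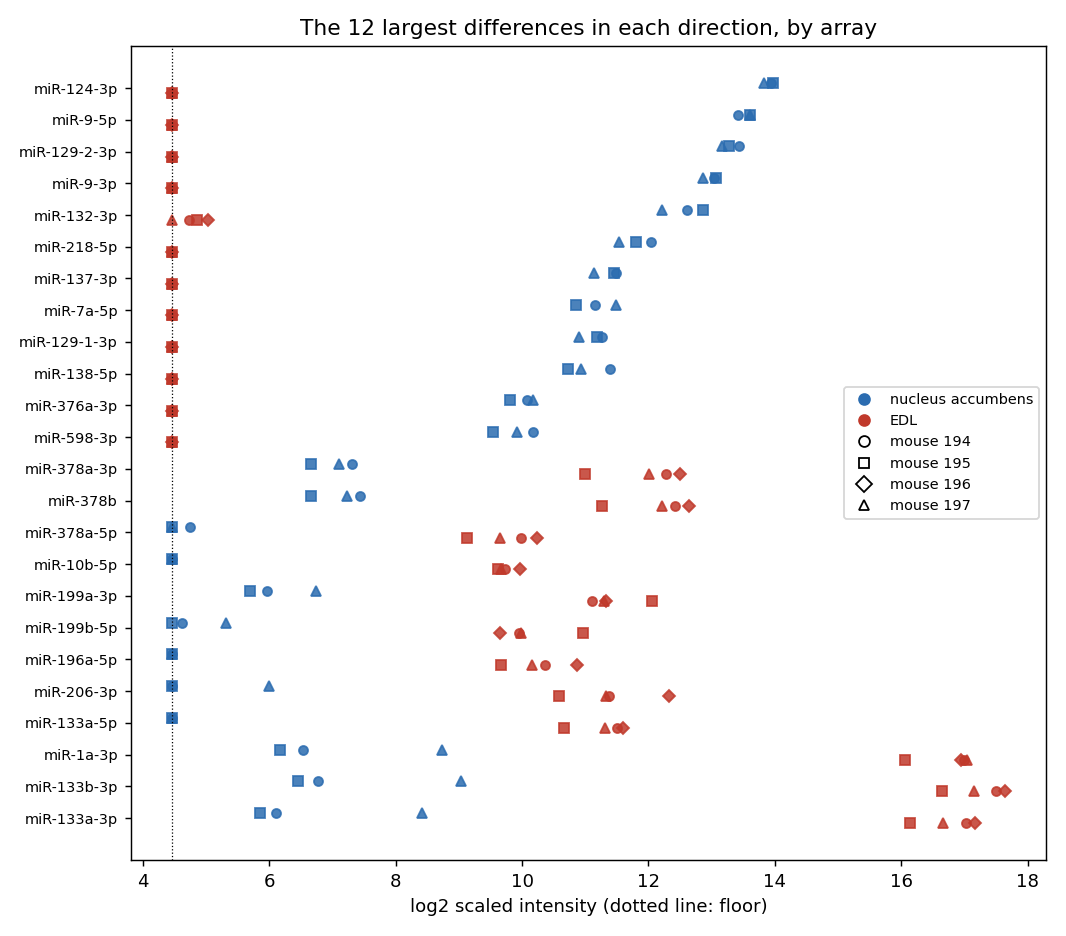
Each row is 1 of the 24 miRNAs with the largest differences, 12 in each direction, and the horizontal axis is the log2 scaled intensity. Blue symbols are nucleus accumbens arrays, red symbols EDL arrays, the symbol shape is the mouse and the dotted line is the floor at 4.46. The tissues do not overlap in any row, and the triangle of mouse 197 is the highest of the blue symbols for miR-1a-3p, miR-133a-3p, miR-133b-3p and miR-206-3p.

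The miR-7 family, known from endocrine cells and also abundant in brain, was higher in the nucleus accumbens together with miR-375-3p, an islet and pituitary miRNA. miR-7a-5p read 11.15, 10.86 and 11.48 in the nucleus accumbens and was set to the floor on all 4 EDL arrays, although 3 of them detected a probe of it. Its difference of 6.70 (adjusted p = 1.5e-07) is therefore measured from the floor, and it ran from 4.28 to 7.12 over the alternatives tried. miR-7b-5p was at least 38.4-fold higher. miR-375-3p stayed dim at 5.08, 4.89 and 5.91 and was at least 1.73-fold higher (adjusted p = 0.020), a call lost without either of 2 EDL arrays and with mouse as a fixed block (adjusted p = 0.096). All 3 endocrine miRNAs were called, with a median of 5.31.

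Of 4 oligodendrocyte miRNAs, 3 were higher in the nucleus accumbens and the list median was 3.43. miR-219-5p, which drives myelin-forming cells to mature, read 8.18, 8.56 and 9.67 and was at least 19.7-fold higher (adjusted p = 6.4e-05). miR-219-2-3p was at least 12.97-fold higher. miR-338-3p, a partner of miR-219 in that maturation, read 9.63, 9.57 and 10.14 against 7.16, 5.24, 7.09 and 7.27, a difference of 3.12 (standard error 0.507, adjusted p = 0.0024). The other arm, miR-338-5p, overlapped between the tissues and was not called (difference 0.40, adjusted p = 0.070), though it was called higher in the nucleus accumbens without either of 2 arrays. It was called higher in the EDL with the percentile over all miRNAs (-0.48, adjusted p = 0.039) and after quantile normalization (-0.54, adjusted p = 0.013). miR-204-5p, which choroid plexus epithelium makes in large amounts, read 10.81, 10.62 and 11.83 against 7.93, 6.11, 8.10 and 7.52, a difference of 3.71 (standard error 0.526, adjusted p = 0.0013). Its relative miR-211-5p was dim and not called (difference 0.45, adjusted p = 0.28). The array of mouse 197 was the highest of the 3 for miR-219-5p, miR-338-3p, miR-204-5p and miR-211-5p. In a whole tissue sample, fewer cells of a type and less RNA in each such cell cannot be told apart.

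The Dlk1-Dio3 region of chromosome 12 is imprinted, and its miRNAs are made from the maternal chromosome in one long noncoding transcription unit, chiefly in brain and in the embryo. The arrays carried 110 miRNAs of the region, of which 56 passed the detection filter. Of these, 45 were higher in the nucleus accumbens, 2 were higher in the EDL and 9 were not called, with a median of 2.50 against 0.14 over all miRNAs tested. The filter asks for only 3 arrays, the number the nucleus accumbens had, so a miRNA present in that tissue alone could pass. That limits what the share called can say. Another 54 miRNAs of the region were too dim to test. The 45 calls ran from 0.32 for miR-770-3p to 5.56 for miR-376a-3p, and 40 of them were at 2-fold or more. Of the 56 tested, 18 were detected on every nucleus accumbens array and no EDL array, and 13 of those 18 were called.

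Several of the region's miRNAs were well above background in the muscle too. miR-127-3p read 12.06, 12.10 and 12.16 in the nucleus accumbens against 9.38, 8.87, 9.77 and 9.31 in the EDL, a difference of 2.80 (standard error 0.192, adjusted p = 4.1e-05). miR-154-5p differed by 3.21 (standard error 0.154) and miR-382-5p by 3.15 (standard error 0.205). miR-434-3p differed by 2.19 (standard error 0.278). miR-494-3p stood apart from these. It read 9.36, 9.91 and 9.64 against 9.59, 9.92, 9.69 and 9.00 and was not called (difference 0.09, adjusted p = 0.76). With the percentile over all miRNAs it was called higher in the EDL (-0.78, adjusted p = 0.0089), and in 1 other alternative higher in the nucleus accumbens. The 2 miRNAs higher in the EDL, named after their values were seen, were miR-3072-5p at -1.23 and miR-299b-5p at -0.98.

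All 5 core muscle miRNAs were higher in the EDL, with a median of -9.60. miR-133a-3p, which restrains smooth muscle genes in muscle fibres, read 17.02, 16.13, 17.16 and 16.66 in the EDL and 6.11, 5.86 and 8.42 in the nucleus accumbens. The difference was -9.92 (standard error 0.637, adjusted p = 3.0e-05). miR-133b-3p, near-identical in sequence, differed by -9.79 (standard error 0.631). miR-1a-3p, made with miR-133a from shared precursors, read 16.99, 16.06, 16.95 and 17.03 against 6.52, 6.16 and 8.73, a difference of -9.60 (standard error 0.612, adjusted p = 3.0e-05). miR-206-3p, the member found mainly in skeletal muscle, read 11.37, 10.58, 12.32 and 11.33. It was at the floor in 2 of the 3 nucleus accumbens arrays and at 6.00 in mouse 197, a difference of -6.37 (standard error 0.514, adjusted p = 8.6e-05). miR-133a-5p, the other arm of the miR-133a hairpin, was detected on no nucleus accumbens array and was at least 119-fold higher in the EDL.

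The nucleus accumbens array of mouse 197 thus held the highest levels of the muscle miRNAs among the 3 brain arrays. The summed signal of the list ranged from 8.03 to 10.43 (log2) over the nucleus accumbens arrays and from 17.91 to 18.89 over the EDL arrays. Without that array the differences widened, to -10.82 for miR-133a-3p and -10.46 for miR-1a-3p, and all 5 were still called. What part that array's muscle signal played in other results was not tested.

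The myosin-gene miRNAs mark slow and cardiac fibres, since their hairpins lie inside myosin heavy chain genes. miR-499-5p, inside Myh7b, was the only one of 3 detected on enough arrays to test. It read 6.18, 4.62, 5.10 and 6.09 in the EDL and was detected on no nucleus accumbens array. It did not pass the test (difference -1.06, standard error 0.396, adjusted p = 0.058). Without the EDL array of mouse 195 it was called higher in the EDL (-1.69, adjusted p = 0.0063), as it was in 9 of 19 alternatives in all. The 3 measured members of the miR-378 family were all higher in the EDL, with a median of -4.99. The miR-378a hairpin lies inside Ppargc1b, a regulator of mitochondrial genes. miR-378a-3p read 12.28, 10.99, 12.50 and 12.00 in the EDL against 7.30, 6.67 and 7.10 in the nucleus accumbens, a difference of -4.89 (standard error 0.351, adjusted p = 5.1e-05). miR-378a-5p differed by -5.16 (standard error 0.250) and miR-378b by -4.99 (standard error 0.336).

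The 4 miRNAs of the Hox gene clusters, genes that set position along the body axis below the forebrain, were all higher in the EDL and detected on no nucleus accumbens array. Their list median was -4.59. They passed the detection filter through the EDL alone, which limits what the count of 4 can say. Of all miRNAs tested, 23.5% were called higher in the EDL. miR-196a-5p read 10.37, 9.66, 10.86 and 10.15 in the EDL and was at least 59.3-fold higher (adjusted p = 6.5e-06). miR-10b-5p read 9.74, 9.62, 9.97 and 9.66 and was at least 41.5-fold higher (adjusted p = 4.7e-08). miR-10a-5p was at least 16.4-fold and miR-196b-5p at least 14.0-fold higher. The pairs share a seed, as the sequences above show, and each pair differed in the same direction.

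The mesenchymal miRNAs come in part from the noncoding Dnm3os gene, which is active in connective tissue and its precursors. Of 5 listed, 4 were tested and all 4 were higher in the EDL, with a median of -4.92. miR-199a-3p read 11.10, 12.05, 11.32 and 11.30 in the EDL against 5.96, 5.70 and 6.74 in the nucleus accumbens, a difference of -5.32 (standard error 0.329, adjusted p = 2.6e-05). miR-199b-5p differed by -5.37 (standard error 0.367) and miR-199a-5p by -4.53 (standard error 0.361). miR-214-3p, from the same transcript, was at least 11.5-fold higher. The dim EDL array of mouse 195 gave the highest EDL value for each of these 4. Without it all 4 were still called, at -3.38 to -5.36.

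Other cells of the 2 tissues left smaller differences. All 4 vascular miRNAs tested were higher in the EDL, with a median of -1.67. The call of miR-126-5p (-1.12, adjusted p = 0.037, tissues overlapping) was lost in 9 of 23 alternatives, among them the fit without a mouse block and each fit without 1 nucleus accumbens array. miR-126-3p, made in endothelium, read 12.70, 12.18, 12.77 and 12.59 against 11.23, 11.20 and 11.24, a difference of -1.33 (standard error 0.138, adjusted p = 0.00028). miR-143-3p and miR-145a-5p, a smooth muscle pair, differed by -2.03 (standard error 0.348) and -2.02 (standard error 0.345). Of 4 leukocyte miRNAs, miR-155-5p (at least 5.73-fold) and miR-223-3p (difference -2.03, standard error 0.106) were higher in the EDL. miR-142-3p was higher in the nucleus accumbens (0.96, standard error 0.228, adjusted p = 0.012), and miR-150-5p was not called. The call of miR-142-3p was lost without the nucleus accumbens array of mouse 197 (0.74, adjusted p = 0.093) and without the EDL array of mouse 195 (0.68, adjusted p = 0.091). Without that EDL array miR-150-5p turned from 0.21 to -0.34 and was called higher in the EDL (adjusted p = 0.034), so that 3 of the 4 were.

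Of 4 red cell miRNAs listed, miR-451a alone was tested. The arms of miR-144 did not pass the detection filter, and miR-486a-5p was not on the array. miR-451a read 13.28, 11.52 and 12.60 in the nucleus accumbens and 11.55, 9.96, 11.15 and 10.94 in the EDL. The tissues overlapped, and the difference of 1.58 (standard error 0.467, adjusted p = 0.026) was lost without the nucleus accumbens array of mouse 197 (1.43, adjusted p = 0.099) and without the EDL array of mouse 195 (1.06, adjusted p = 0.066). It was also lost without 2 other arrays. Of 7 epithelial miRNAs, 2 were tested, and these do not stand for the list. The summed signal of all 7 ran from 7.32 to 12.08 (log2) over the nucleus accumbens arrays and from 7.42 to 8.06 over the EDL arrays. Among the members not tested, miR-200a-3p was far above the floor in the nucleus accumbens of mouse 197, as given under the other observations. miR-203-3p was higher in the EDL (-0.68, standard error 0.235, adjusted p = 0.043), a call lost without a mouse block (adjusted p = 0.055) and without any of 3 arrays. miR-205-5p was detected on no nucleus accumbens array and was not called (-0.92, adjusted p = 0.10). It was called higher in the EDL in 10 of 22 alternatives, among them the fit without the EDL array of mouse 195 (-0.82, adjusted p = 0.032).

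Families made in most tissues differed less. Of 9 let-7 miRNAs, which hold back growth genes in differentiated cells, 7 were higher in the nucleus accumbens and 2 were not called, with a median of 0.63. The count was 4 without the EDL array of mouse 195 and 1 with the percentile over all miRNAs. let-7a-5p read 14.33, 14.48 and 14.18 against 13.60, 13.56, 14.17 and 13.58, a difference of 0.63 (standard error 0.166, adjusted p = 0.017). Its sign turned to -0.25 with the percentile over all miRNAs, and let-7c-5p and let-7f-5p turned likewise. Without the EDL array of mouse 195 the call of let-7a-5p was lost (0.27, adjusted p = 0.14). The calls of let-7c-5p (0.72) and let-7f-5p (0.53) were each lost without any of 5 arrays, with differences of 0.45 to 0.85 and 0.11 to 0.63. All 3 miR-29 miRNAs, which lower collagen and other matrix messages, were higher in the nucleus accumbens under each scaling tried. miR-29b-3p read 13.04, 12.78 and 13.16 against 9.44, 8.99, 8.33 and 9.52, a difference of 3.88 (standard error 0.284, adjusted p = 5.6e-05). miR-29a-3p differed by 2.19 (standard error 0.140) and miR-29c-3p by 1.61 (standard error 0.159).

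All 4 miR-181 miRNAs were higher in the nucleus accumbens with a median of 1.95, led by miR-181c-5p at 2.37 (standard error 0.127). In the miR-99 and miR-125 families 4 of 5 were higher there, with a median of 1.58, and 3 of 5 without the EDL array of mouse 195. miR-125a-5p differed by 2.66 (standard error 0.117) and miR-125b-5p by 1.62 (standard error 0.129). miR-99b-5p, which the study used as its reference assay between strains, read 9.28, 9.22 and 9.22 in the nucleus accumbens against 7.57, 7.72, 8.0004 and 7.44 in the EDL. Its difference between tissues was 1.58 (standard error 0.126, adjusted p = 8.3e-05), and it lay between 0.70 and 1.74 under the alternatives tried. miR-100-5p, which shares the seed of miR-99b-5p, was not called (difference -0.20, adjusted p = 0.42). Without the EDL array of mouse 195 it was called higher in the EDL (-0.65, adjusted p = 0.0094).

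The 5 miRNAs of the miR-23, miR-24 and miR-27 family, encoded together in clusters, were all higher in the EDL, with a median of -0.75. miR-23a-3p led with -1.31 (standard error 0.123, adjusted p = 0.00018) and miR-27a-3p followed with -1.09 (standard error 0.215). The calls of miR-24-3p (-0.44) and miR-23b-3p (-0.58) were lost with mouse as a fixed block (-0.36 and -0.49, adjusted p = 0.082 and 0.083) and without the nucleus accumbens array of mouse 197 (adjusted p = 0.060 and 0.066). Without the EDL array of mouse 195 they widened to -0.83 and -1.03. With unscaled intensities, and with spike-in scaling, 2 of the 5 were called. Of 7 miRNAs of the miR-17-92 cluster and its paralogs, which promote cell division, 5 were not called. miR-92a-3p was higher in the EDL (-1.24, standard error 0.197, adjusted p = 0.0022). miR-106b-5p, named after its values were seen, was higher in the nucleus accumbens (1.06, standard error 0.169, adjusted p = 0.0022). Calls toward the EDL numbered 4 of 7 without the EDL array of mouse 195, and 4 with the percentile over all miRNAs or quantile normalization. Of 9 miR-30 miRNAs, 2 were higher in the EDL and 7 were not called. That count of 2 became 7 without the EDL array of mouse 195, 5 under each of the same pair of scalings, and 0 with unscaled or spike-in scaled values.

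**Figure D3:**
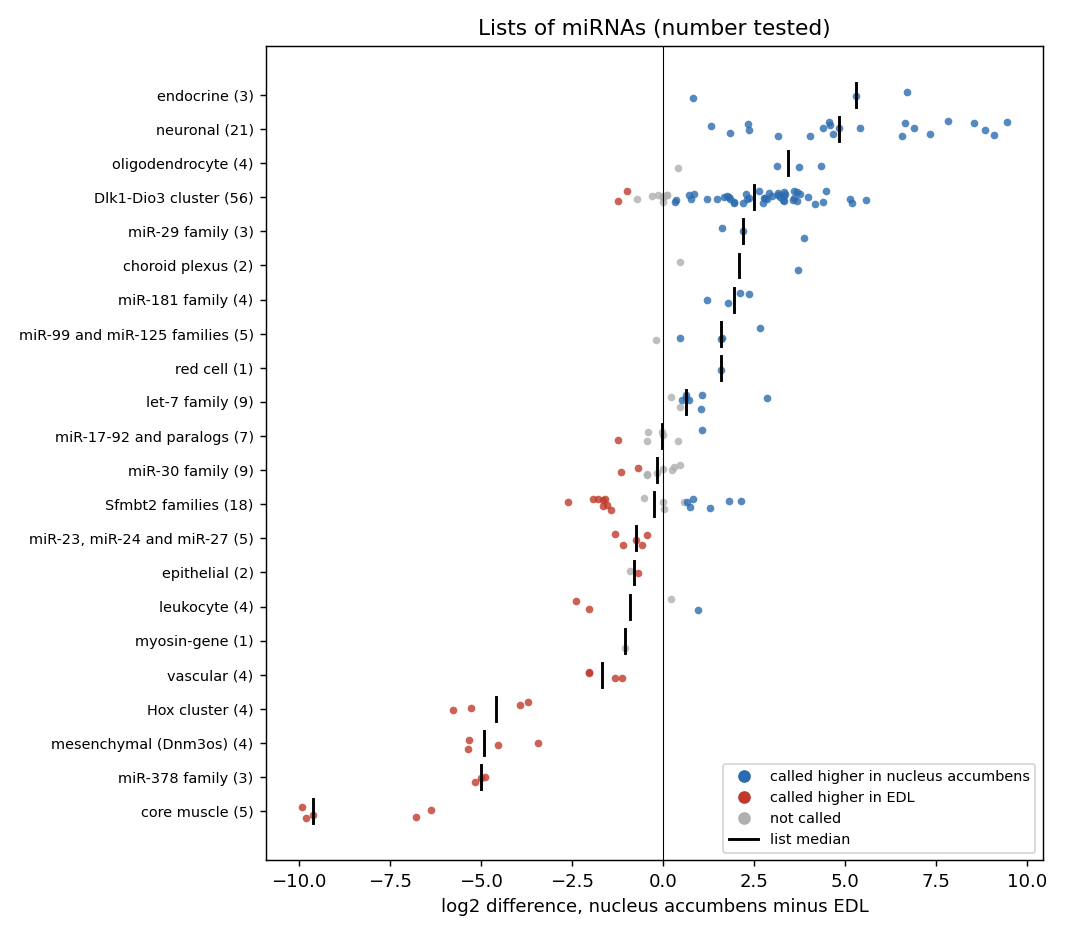
Each point is a tested miRNA of the list named at the left, with the number tested in parentheses, placed by its log2 difference, nucleus accumbens minus EDL. Blue, red and grey give the call and the black bar is the list median. The medians run from 5.31 for the endocrine and 4.84 for the neuronal list down to -9.60 for the core muscle list, and the miR-17-92 and miR-30 lists sit near 0. The list named for Sfmbt2 holds families with hairpins elsewhere too. The epithelial list shows only the 2 tested of its 7 members.

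The 8 brightest miRNAs that did not pass the test were let-7b-5p, let-7d-5p, miR-26a-5p, miR-16-5p, miR-5109 and the 5p arms of miR-30a, miR-30b and miR-30c. miR-26a-5p, widely expressed in differentiated cells, read 13.69, 13.58 and 13.62 against 13.68, 12.91, 13.87 and 13.59 (difference 0.14, standard error 0.215). miR-16-5p read 11.28, 11.19 and 11.21 against 11.35, 11.08, 11.53 and 11.32 (difference -0.08, standard error 0.096). Their likeness between the tissues is not shown by a missed threshold. Without the EDL array of mouse 195, miR-26a-5p was called higher in the EDL (-0.37, adjusted p = 0.00026), and so were miR-16-5p (-0.46, adjusted p = 0.00011), miR-30a-5p (-0.94, adjusted p = 0.0014), miR-30b-5p (-0.21, adjusted p = 0.044) and miR-30c-5p (-0.24, adjusted p = 0.0068). let-7b-5p, let-7d-5p and miR-5109 were not called without it.

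The families of miR-466, miR-467, miR-669 and miR-297 are repeat-rich, and many of their hairpins, though not all, form a large cluster inside Sfmbt2 on chromosome 2. The cluster itself held 12 tested miRNAs, 5 called higher in the nucleus accumbens and 3 in the EDL. The arrays carried 62 miRNAs of these families, of which 18 were tested, and they went both ways. There were 6 higher in the nucleus accumbens, 8 higher in the EDL and 4 not called, with a median of -0.26. The 6 were dim in the nucleus accumbens. miR-467a-3p read 6.43, 6.14 and 6.22 and was set to the floor on all 4 EDL arrays, 1 of which detected it. Its difference from the floor was 1.80 (adjusted p = 2.4e-06) and ran from 0.45 to 2.30 over the alternatives tried. miR-466b-3p read 5.74, 5.71 and 5.83 and was at least 2.38-fold higher.

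The 8 higher in the EDL were brighter there. miR-466i-5p read 8.75, 10.14, 9.45 and 8.70 in the EDL against 6.66, 6.96 and 6.31, a difference of -2.61 (standard error 0.359, adjusted p = 0.0011). miR-466q (-1.80), miR-669p-3p (-1.65), miR-467f (-1.60) and miR-466h-3p (-1.54) followed the same array pattern. By RefSeq, miR-466i lies on chromosome 13 inside Cdk13, miR-467f on chromosome 11 inside Fxr2 and miR-466q on chromosome 3 inside Tnik, while miR-669p and miR-466h lie inside Sfmbt2. For all 8 the EDL array of mouse 195, the dimmest one, gave the highest scaled value, as it did for 46 of all 95 miRNAs higher in the EDL. For 41 of the 95 it gave the lowest. Without that array the 5 named here were still called, at -1.54 to -2.61. The part of that array's low signal in these values was not tested.

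Both arms of 60 hairpins were tested. In 34 both arms were called in the same direction, in 17 only 1 arm was called, in 5 neither was, and in 4 the arms were called in opposite directions. miR-125a-5p was higher in the nucleus accumbens, at 10.93, 11.24 and 10.99 against 8.21, 8.52, 8.62 and 8.29. Its partner miR-125a-3p was dim and higher in the EDL, at 5.94, 6.42, 5.96 and 4.97 against 4.70, 4.80 and 4.59, a difference of -1.12 (standard error 0.311, adjusted p = 0.021). That call was lost without either of 2 arrays, at -1.07 to -1.41 over all arrays left out in turn, and with mouse as a fixed block (adjusted p = 0.079). miR-652-3p was higher in the nucleus accumbens by 2.39 (standard error 0.212, adjusted p = 0.00014), while miR-652-5p was higher in the EDL (difference -1.14, standard error 0.203, adjusted p = 0.0036). The other pairs were those of miR-3102 and miR-1897. miR-3102-5p (-0.99) and miR-1897-5p (-1.49) were higher in the EDL, and miR-3102-3p (1.17) and miR-1897-3p (0.47) in the nucleus accumbens. The dim arm of each of these pairs lay within a few log2 units of the floor. The direction of miR-3102-3p turned when the software's own summary signal was used (-2.10). That of miR-1897-3p turned with the percentile over all miRNAs (-0.02) and after normexp background correction (-0.04), and its call was lost without the EDL array of mouse 195 (0.27, adjusted p = 0.25).

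**Figure D4:**
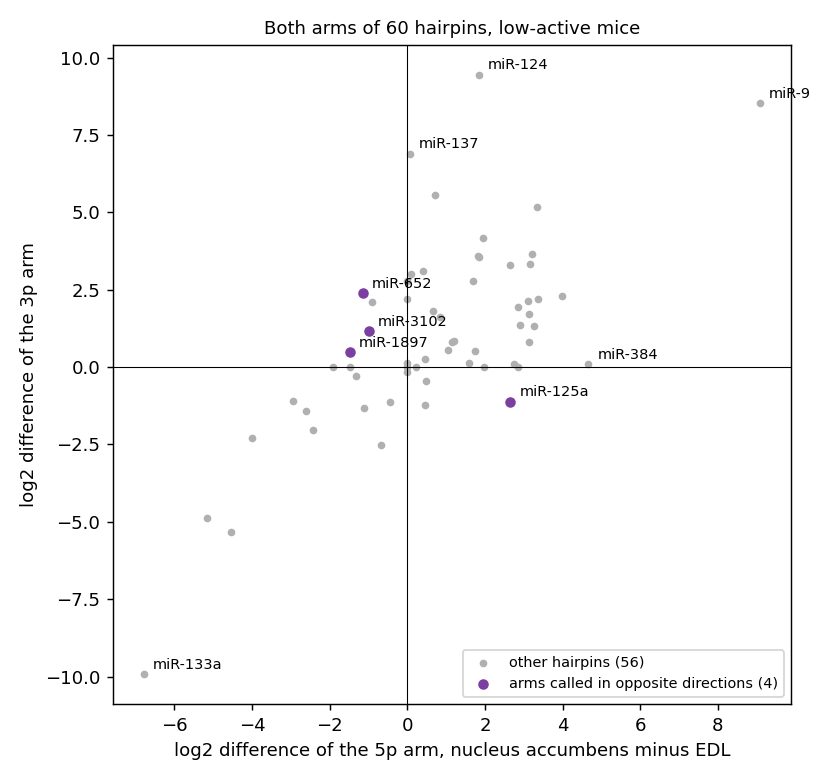
Each point is 1 of 60 hairpins with both arms tested, placed by the log2 difference, nucleus accumbens minus EDL, of its 5p arm (horizontal) and its 3p arm (vertical). Purple points are the 4 hairpins whose arms were called in opposite directions. miR-124, miR-137 and miR-384 lie far off the diagonal with 1 arm dim and differing much less, as for miR-124-5p (1.85) beside miR-124-3p (9.45).

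The calls of neighbouring miRNA genes were also counted by cluster. With genes joined where the gap to the next was at most 10000 bases, 30 clusters held tested miRNAs of at least 2 hairpins. Among the 19 clusters with 2 or more calls, 8 held calls toward the nucleus accumbens alone, 7 toward the EDL alone and 4 held both. The 4 with both were the larger part of the Dlk1-Dio3 region, the Sfmbt2 cluster, the cluster of miR-125a and the hairpins of miR-3102. Of 321 tested miRNAs with a RefSeq mature sequence, 30 seeds were shared by 2 or more. Calls went toward the nucleus accumbens alone for 14 seeds with 2 or more calls, toward the EDL alone for 4 and both ways for 2. Of all calls, 65.3% went toward the nucleus accumbens, so some agreement arises from that share alone. How often unrelated miRNAs would agree was not computed. Clusters can hold both arms of a hairpin, and the Dlk1-Dio3 region falls into several, so these counts are not of independent units.

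The same tissue difference was measured in high-active C57L/J mice on 4 nucleus accumbens and 2 EDL arrays, which share no sample with the low-active arrays. In a joint fit over all 13 arrays, 440 miRNAs were tested. That fit took its scaling, floor, filter and error term from both strains together. The high-active calls are therefore not independent of the low-active arrays, and neither is the overlap below. In high-active mice 165 were higher in the nucleus accumbens (37.5%) and 82 in the EDL (18.6%). Of the 179 called toward the nucleus accumbens in low-active mice, 154 were called so in high-active mice, 86.0% of the low-active and 93.3% of the high-active list. Of the 95 called toward the EDL, 72 were called so, 75.8% of the low-active and 87.8% of the high-active list. None was called in opposite directions, and 267 of the 274 had the same sign in high-active mice. miR-124-3p differed by 9.71, miR-9-5p by 9.50, miR-133a-3p by -10.95 and miR-1a-3p by -10.17 in high-active mice.

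The tissue difference itself differed between the strains for 22 of the 440 miRNAs (5.00%), 53 at an unadjusted p under 0.05. It was larger, as nucleus accumbens minus EDL, in low-active mice for 21 and smaller for 1. The smallest p values belonged to dim miRNAs of the Sfmbt2 families that were at the floor in all EDL arrays and in the high-active nucleus accumbens. On the scale of the 13 arrays miR-466b-3p averaged 5.94 in the low-active nucleus accumbens and lay at the floor of 4.44 in the other groups, so the strains differed by 1.49 (standard error 0.027, adjusted p = 9.1e-11). miR-467a-3p differed by 1.86 (standard error 0.126, adjusted p = 7.0e-06), miR-467e-5p by 1.01 and miR-467a-5p by 0.85. miR-342-5p was the 1 miRNA with a smaller difference. It averaged 5.25 in the high-active nucleus accumbens and was at the floor elsewhere, an interaction of -0.81 (standard error 0.084, adjusted p = 0.00024). Since most groups lay at the floor, their spread was 0 by construction. The fit pooled it with the spread of the 3 or 4 arrays above the floor, which lowered these standard errors and p values. The smallest p values therefore favour miRNAs of this kind. The count of 22 fell to 8 without the EDL array of high-active mouse 225, to 10 without that of high-active mouse 227, to 12 without that of low-active mouse 194 and to 14 without the nucleus accumbens array of low-active mouse 194. No miRNA was called when the test was kept to those detected on all 13 arrays.

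**Figure D5:**
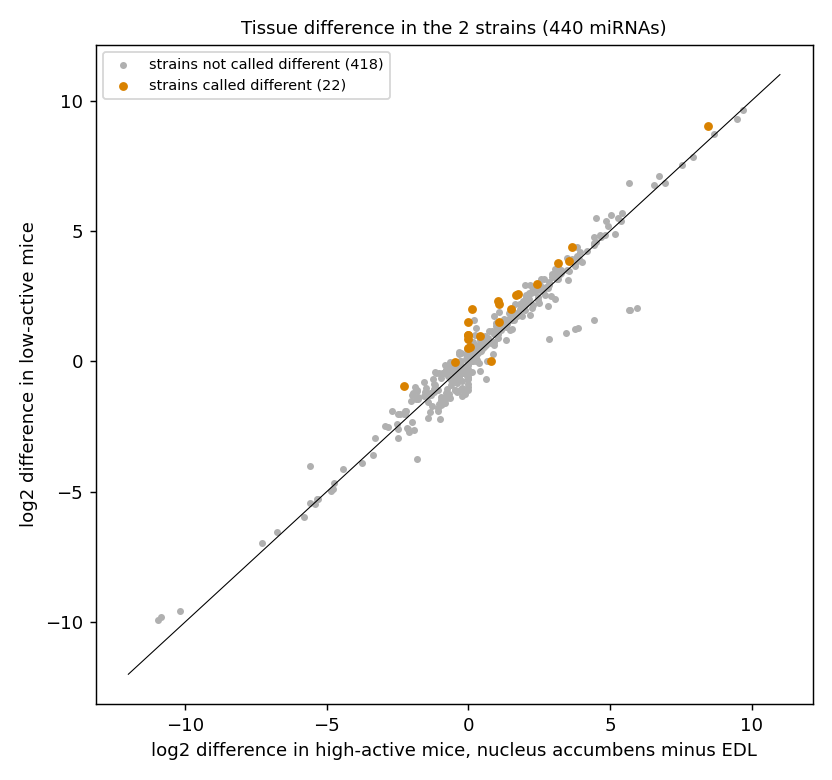
Each point is 1 of 440 miRNAs, placed by its log2 difference, nucleus accumbens minus EDL, in high-active mice (horizontal) and in low-active mice (vertical). Orange points are the 22 miRNAs whose tissue difference was called different between strains, and the line marks equal differences. Most points follow the line, and the orange points lie near it or above it except for miR-342-5p. The few grey points well below the line include miR-200a-3p (2.04 in low-active and 5.95 in high-active mice), which was not called.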

How the data were processed

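The authors extracted total RNA, hybridised 100 ng per sample to one-colour (Cy3) Agilent mouse miRNA arrays and deposited the output of Feature Extraction 10.7.1.1, in which each spot carries a background-corrected intensity. Per the labels, one array held one tissue under one number, taken to be that of the mouse. The authors' own percentile shift was made within each tissue and was not used here.

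Control spots and outlier spots were left out. Spot intensity was averaged by probe and then over the probes of a miRNA, and each array was scaled to the 75th percentile of the miRNAs detected on all 7 arrays. Log2 values were fitted with limma 3.58.1 in R 4.3.3, with mouse as a random block (correlation 0.178) and Benjamini-Hochberg adjustment over 404 miRNAs. The block follows the number shared by sample titles, taken here to mark one animal, which the labels do not state in words. Deviations from the tissue means correlated at 0.0937 for mouse 194, 0.383 for mouse 195 and 0.462 for mouse 197. Only mouse 197 had both tissues on the same slide, so mouse and slide cannot be told apart in its value. The interaction with strain was fitted over 13 arrays scaled together. No spot was saturated. The fit was tested on simulated data built from miRNAs detected on all 13 arrays, with every probe set as detected. That test does not cover the p values of miRNAs undetected in a tissue.

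The named miRNAs were the 12 with the largest called, non-overlapping difference in each direction, the 5 brightest members of each marker or family list, the 8 brightest not called, arms called in opposite directions, the 6 smallest interaction p values, miR-99b-5p, and the 6 brightest detected in one tissue alone in each direction. The comparison, the members and the lists were chosen with earlier results of these data known. Normexp, an alternative, used median spot signals.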

Additional observations from a re-analysis of the deposited data

Results flagged for a closer look

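In groups of 4, a value can stand apart from the others by the gap to its nearest neighbour as a share of the group's range. Chance marks about 1 in 20 groups. Among the EDL values of 85 named miRNAs, 8 stood apart, and in 5 of these the array of mouse 195 was the lowest. Those 5 were miR-338-3p (0.911), miR-1a-3p (0.910), miR-30b-5p (0.848), miR-145a-5p (0.840) and miR-30c-5p (0.837). The others were let-7a-5p, highest in mouse 196 (0.927), miR-652-5p, highest in mouse 197 (0.858), and miR-1897-3p, highest in mouse 194 with the other 3 arrays at the floor (1).

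The tissue difference was tested between strains, as low-active minus high-active on the log2 scale. It passed for miR-467a-3p (1.86), miR-466b-3p (1.49), miR-3102-5p (1.32), miR-375-3p (1.03), miR-467e-5p (1.01), miR-467a-5p (0.85), miR-129-2-3p (0.55) and miR-770-3p (0.52), and in the other direction for miR-342-5p (-0.81). The calls of miR-3102-5p and miR-375-3p were lost in 9 and 8 of the 13 fits that left out 1 array, and that of miR-129-2-3p in 2.

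The arrays also carry 57 viral miRNAs, which no comparison used. Up to 7 of them were well above background on a low-active array. The 5 detected on at least 3 arrays differed between the tissues by -1.19 to 0.34 (log2), and 4 of the 5 were lower in the nucleus accumbens.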

How the results depend on the processing

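Of 107 named miRNAs, 62 kept call and direction in all 23 alternatives, where tested, and 19 turned direction in at least 1. With the percentile over all mouse miRNAs, 148 miRNAs were called higher in the EDL, and 150 after quantile normalization. Among the 194 miRNAs detected on all 7 arrays, 72 were called higher in the nucleus accumbens (50.3% of calls). Leaving out 1 array gave 100 to 184 calls toward the nucleus accumbens and 81 to 125 toward the EDL. The strain interaction gave 9 calls after quantile normalization, 6 with the percentile over all miRNAs, 0 among miRNAs detected on all 13 arrays and 8 to 30 with 1 array left out. The causes were not tested.

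Among the named miRNAs, directions turned mostly for small differences, but also for miR-3102-3p, called at 1.17. Of all 274 calls, 22 turned with the percentile over all miRNAs, 13 after quantile normalization and 11 with the scanner's signal per miRNA. Normexp turned 4, and leaving out the EDL array of mouse 195 turned 1. One of the larger was miR-1187, called at -2.45, which reached 2.58. Under a change of scaling, some turned values of named miRNAs were called higher in the EDL by limma. With the percentile over all miRNAs these were miR-338-5p (adjusted p = 0.039), miR-494-3p (adjusted p = 0.0089) and miR-99a-5p (adjusted p = 0.047). After quantile normalization it was miR-338-5p (adjusted p = 0.013). The percentile over all miRNAs gave let-7a-5p -0.25, let-7b-5p -0.42, let-7c-5p -0.17, let-7d-5p -0.67, let-7f-5p -0.35, miR-150-5p -0.67, miR-1897-3p -0.025, miR-26a-5p -0.74, miR-30b-5p -0.58, miR-30c-5p -0.62, miR-30e-5p -0.37, miR-338-5p -0.48, miR-494-3p -0.78, miR-93-5p -0.49 and miR-99a-5p -0.41. The median over commonly detected miRNAs gave let-7d-5p -0.0073, miR-150-5p -0.0097, miR-26a-5p -0.085 and miR-494-3p -0.12. Quantile normalization gave let-7d-5p -0.17, miR-150-5p -0.45, miR-26a-5p -0.0076, miR-30c-5p -0.12, miR-30e-5p -0.068, miR-338-5p -0.54, miR-494-3p -0.49 and miR-93-5p -0.44. Unscaled values gave miR-16-5p 0.023 and miR-19b-3p 0.062, and spike-in scaling 0.081 and 0.12. The scanner's signal per miRNA gave miR-3102-3p -2.10. Normexp gave miR-1897-3p -0.035, miR-338-5p -0.037 and miR-770-3p -0.0092. With 1 array left out, let-7d-5p ran from -0.20 to 0.37, miR-150-5p from -0.34 to 0.36, miR-19b-3p from -0.51 to 0.079, miR-26a-5p from -0.37 to 0.23, miR-30b-5p from -0.21 to 0.39, miR-30c-5p from -0.24 to 0.33, miR-494-3p from -0.10 to 0.25 and miR-93-5p from -0.062 to 0.54.

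Without the replicate block that pairs tissues by mouse, 178 and 92 miRNAs were called, and let-7c-5p (0.69, adjusted p = 0.052), miR-126-5p (-1.10, adjusted p = 0.061) and miR-203-3p (-0.70, adjusted p = 0.055) lost their call. With the replicate block as a fixed term the counts were 168 and 79, and with the slide as a fixed term 184 and 101. Dropping the 30 miRNAs at the floor on every array, an alternative chosen after seeing the data, gave 179 and 100. Where both tissues lie at the floor the difference reads 0 whatever the levels beneath it, also for miRNAs with a detected probe.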

Other observations

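The miR-200 family and its companions miR-182 and miR-183, miRNAs of epithelium and sensory cells, varied between nucleus accumbens arrays of one strain. They were picked after their values were seen. On the scale of the 13 arrays, miR-200a-3p lay at the floor in low-active mice 194 and 195 and at 10.58 in mouse 197. In high-active mice it read 5.53, 12.08, 12.54 and 11.11 (mice 224, 227, 223 and 225), and it was at the floor on all 6 EDL arrays. Its strain interaction was not called (-3.91, standard error 2.73, adjusted p = 0.65). With 1 of 3 low-active arrays positive, 5 of the 7 epithelial miRNAs listed did not reach the detection filter of the low-active comparison.

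miRNAs with a number above 1000, mostly later entries of the miRNA registry, leaned the other way from the rest. This split was also made after the values were seen. Of 71 tested, 9 were higher in the nucleus accumbens and 29 in the EDL, with a median of -0.59, against 170 and 66 of 333 others, with a median of 0.47. For 21 of the 29 the dim EDL array of mouse 195 gave the highest EDL value.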
